A study of Rattus norvegicus with 12 samples.

Results

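Genes of the cells that wrap blood vessels and of the matrix around those vessels were followed in the striatum of 12 male Sprague–Dawley rats, by RNA sequencing of 1 library per rat. A list of 40 genes was fixed by gene symbol. It holds 8 pericyte and mural identity genes, 6 smooth muscle contractile genes, 9 fibroblast and proteoglycan genes, 8 interstitial collagen genes and 9 basement membrane and adhesive matrix genes. Of these, 35 were found among the 17337 genes of the count table, and *Col4a2*, *Col6a1*, *Col6a3*, *Lama2* and *Nid1* were not analysed here. All 12 rats were wild type and had gone through 16 days of methamphetamine (MA) self-administration, a procedure in which a lever press delivers an intravenous infusion. The methods give an age of 8 weeks at the start of training. In the MA12 group (4 rats) the striatum was taken 12 h after the last session, and in the MA24 group (4 rats) 24 h after it. The remaining 4 rats carry the label non-addicted, whose criterion and time of sampling are not given in the sources used here, and no saline rats were analysed here. The comparisons ask how these genes differed between the abstinence times and between non-addicted rats and either time. The rats lived under a 12-h light–dark cycle, and the clock time of sampling is not given in the sources used here. In MA24 vs. MA12, abstinence time and time of day therefore cannot be told apart. Rat numbers end in N in all 4 MA24 rats, in 2 of the 4 MA12 rats and in no non-addicted rat, so for non-addicted vs. MA24 the group and the kind of number cannot be told apart.

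Mural cells sit on the outside of vessels. Pericytes lie on capillaries within the basement membrane that they share with the endothelium, while smooth muscle cells wrap arteries and arterioles and set their diameter through actin and myosin. Perivascular and meningeal fibroblasts lie further out and secrete fibrillar collagens and small proteoglycans such as decorin. In the brain, endothelial PDGF-B signals to PDGFRβ on mural cells, and this signal is known to be needed for pericyte coverage of capillaries and for an intact blood-brain barrier.

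Total counts per rat lay between 17908962 and 23850284. Levels are given in CPM, counts scaled to the size of the library after TMM normalization, always in the order rats 9, 11, 12 and 13 for non-addicted, 21, 31, 4N and 7N for MA12, and 9N, 14N, 15N and 16N for MA24. Groups are given as mean ± SD (n = 4), and a log2FC as estimate ± SE from edgeR's quasi-likelihood test, with a p-value adjusted for the whole set of genes tested. DEGs were genes whose adjusted p was below 0.05 and whose fold change (FC) reached 1.5. In each comparison 33 of the 35 genes were tested. The other 2, *Col1a2* (the second chain of type I collagen) and *Ogn* (the proteoglycan osteoglycin), are listed at 0 in every library. By counting error alone, a count of 0 leaves room for about 3 counts, or 0.126 to 0.168 CPM per library. Why these genes are at 0 was not tested, and the values are not read here as a lack of expression. *Col1a1*, the first chain of the same collagen, had 219 to 385 counts per rat. The defining pericyte genes were present in every rat, with 561 to 1301 counts for *Pdgfrb*, 49 to 211 for *Kcnj8* and 11 to 73 for *Tbx18*. Among the fibroblast genes, *Dcn* had 50 to 145 counts and *Lum* 7 to 47, while *Fbln1* had 619 to 900 and *Igf2* 495 to 963. Non-addicted rat 9 stood apart. It had the lowest level of all 12 rats for 16 of the 33 genes with counts, and the choroid plexus transcript *Ttr* was at 17.2 CPM there and at most 0.70 CPM in any other rat.

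Of the 35 genes, 22 had a promoter in the RefSeq table (build GRCr8, a newer build than the rn6 used for counting, so the positions refer to GRCr8 alone). The 250 bases before the start site are printed for 4 genes that were DEGs in at least one comparison, *Acta2*, *Abcc9*, *Rgs5* and *Egflam*, because smooth muscle genes are known to be driven by serum response factor at CArG boxes, and the set lets the contractile gene be read beside the others. The capitals mark CArG boxes, which start with CC, end with GG and hold 6 letters between. A box was called exact when all 6 were A or T and relaxed when at most 1 was C or G. The box reads as itself on the opposite strand, so a single search covers both strands, and no other motif was searched.
*Acta2* (chr1:241172504-241172753, reverse strand): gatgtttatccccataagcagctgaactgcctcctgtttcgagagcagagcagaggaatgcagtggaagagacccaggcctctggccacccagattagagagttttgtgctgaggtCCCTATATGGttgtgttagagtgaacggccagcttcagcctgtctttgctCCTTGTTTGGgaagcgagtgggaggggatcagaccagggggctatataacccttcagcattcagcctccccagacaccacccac
*Abcc9* (chr4:177386349-177386598, reverse strand): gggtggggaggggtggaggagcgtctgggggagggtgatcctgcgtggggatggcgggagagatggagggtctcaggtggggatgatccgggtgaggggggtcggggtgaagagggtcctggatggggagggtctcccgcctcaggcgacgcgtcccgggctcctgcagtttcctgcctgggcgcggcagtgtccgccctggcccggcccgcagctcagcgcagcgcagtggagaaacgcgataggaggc
*Rgs5* (chr13:84380827-84381076, forward strand): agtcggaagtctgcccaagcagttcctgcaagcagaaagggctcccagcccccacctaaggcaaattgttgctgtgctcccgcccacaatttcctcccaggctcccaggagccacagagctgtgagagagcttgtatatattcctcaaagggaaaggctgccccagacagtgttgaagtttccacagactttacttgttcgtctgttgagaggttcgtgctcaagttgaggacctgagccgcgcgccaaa
*Egflam* (chr2:58203644-58203893, reverse strand): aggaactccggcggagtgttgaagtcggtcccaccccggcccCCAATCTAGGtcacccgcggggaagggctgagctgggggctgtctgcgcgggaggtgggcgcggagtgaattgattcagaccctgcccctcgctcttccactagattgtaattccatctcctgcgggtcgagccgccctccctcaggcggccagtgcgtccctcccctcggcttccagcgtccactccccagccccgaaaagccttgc
*Acta2* held 2 relaxed boxes, which begin 134 and 84 bases before its start, and *Egflam* held 1 that begins 208 bases before. No box was found in these windows of *Abcc9* or *Rgs5*. The same windows of *Cnn1* and *Mylk*, the other contractile genes with a promoter in the table, held no box either. In the table as a whole, 1.5% of 33469 promoters held an exact box and 8.08% a relaxed or exact one. Among the 22 genes with a promoter, 4 held at least 1 relaxed or exact box (*Acta2*, *Egflam*, *Tbx18* and *Igf2*), and the exact one was at *Igf2*. Another promoter of *Igf2* held no box. The list is counted by gene and the whole table by promoter, so these shares differ in unit. These matches describe letters and not binding. *Tagln* and *Smoc2*, the other DEGs, had no entry.

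In non-addicted vs. MA12, the 3 DEGs of the list were mural cell genes, all lower in the non-addicted rats, and each was lost when genes of low variance were kept. *Abcc9*, *Tagln* and *Acta2* were downregulated, by 1.10, 0.83 and 0.81 on the log2 scale, and no gene of the list was upregulated. These 3 of 33 genes compare with DEGs at 0.251% of all 10758 genes, 0.149% being downregulated. The log2FC was below 0 for 27 of 33, against 52.3% of all genes, and the median log2FC was -0.39 against -0.012 over all genes. At an unadjusted p below 0.05, 17 genes were lower and 2 higher, against 7.03% and 5.31% of all genes. The groups did not overlap for 9 genes that were lower and 1 that was higher, against 3.76% and 3.24%. In bulk tissue, fewer cells of a type and less RNA per cell cannot be told apart. The values by rat follow, first for the pericyte genes.

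*Abcc9* encodes SUR2, the regulatory subunit of the ATP-sensitive potassium channel of pericytes and smooth muscle. Its level was 9.23, 11.6, 14.9 and 14.1 CPM in the non-addicted rats, 26.6, 33.2, 30.5 and 16.3 CPM in MA12 and 14.1, 14.1, 18.9 and 17.4 CPM in MA24. Each non-addicted rat was below each MA12 rat, and MA12 rat 7N lay among the MA24 rats. Means were 12.5 ± 2.57, 26.7 ± 7.44 and 16.1 ± 2.41 CPM. *Abcc9* was downregulated in non-addicted vs. MA12 (log2FC = -1.10 ± 0.19, adjusted p = 0.0157) and in MA24 vs. MA12 (log2FC = -0.73 ± 0.17, adjusted p = 0.0225). Between non-addicted and MA24 it was not a DEG (log2FC = -0.38 ± 0.16, adjusted p = 0.244).

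*Kcnj8* encodes Kir6.1, the pore of the same channel. It was at 2.55, 5.13, 6.11 and 5.10 CPM in the non-addicted rats, 5.89, 8.11, 9.92 and 6.49 CPM in MA12 and 6.58, 5.91, 9.10 and 6.87 CPM in MA24. The groups overlapped in each comparison, and rat 9 was the lowest of all. The differences were log2FC = -0.69 ± 0.25, adjusted p = 0.254 for non-addicted vs. MA12 and log2FC = -0.10 ± 0.21, adjusted p = 0.813 for MA24 vs. MA12.

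*Rgs5*, a regulator of G protein signalling that marks pericytes, was at 12.0, 21.4, 27.9 and 26.4 CPM in the non-addicted rats, 37.5, 51.6, 45.9 and 26.4 CPM in MA12 and 23.7, 20.5, 25.6 and 28.6 CPM in MA24. In MA12, 3 rats were above every non-addicted and MA24 rat, and rat 7N was within the range of those groups. Means were 21.9 ± 7.18, 40.4 ± 11.0 and 24.6 ± 3.37 CPM. *Rgs5* was downregulated in MA24 vs. MA12 (log2FC = -0.72 ± 0.16, adjusted p = 0.016). In non-addicted vs. MA12 it did not pass the adjusted threshold (log2FC = -0.89 ± 0.21, adjusted p = 0.0798), and in non-addicted vs. MA24 the value was log2FC = -0.17 ± 0.19, adjusted p = 0.653, which turned to 0.031 without rat 9.

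*Pdgfrb*, the receptor for PDGF-B, was at 29.2, 33.4, 37.4 and 34.8 CPM in the non-addicted rats, 45.8, 54.4, 56.2 and 41.4 CPM in MA12 and 41.6, 38.5, 44.7 and 44.5 CPM in MA24. The non-addicted rats lay below all 8 others, while MA12 and MA24 overlapped. In non-addicted vs. MA12 the adjusted p passed but the FC stayed under 1.5 (log2FC = -0.56 ± 0.11, adjusted p = 0.0446), so *Pdgfrb* was not a DEG. In non-addicted vs. MA24 the value was log2FC = -0.33 ± 0.11, adjusted p = 0.138.

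*Notch3*, the Notch receptor of mural cells, was at 24.3, 38.6, 45.0 and 38.5 CPM in the non-addicted rats, 57.2, 84.6, 66.6 and 34.6 CPM in MA12 and 53.0, 41.3, 49.2 and 59.1 CPM in MA24. MA12 ran from 34.6 CPM in rat 7N, below 3 of the non-addicted rats, to 84.6 CPM in rat 31, the highest of all. It was a DEG in no comparison (log2FC = -0.74 ± 0.20, adjusted p = 0.13 for non-addicted vs. MA12).

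*Vtn* encodes vitronectin, an adhesive glycoprotein made in the brain by pericytes. It was at 23.0, 23.6, 23.0 and 24.5 CPM in the non-addicted rats, 26.3, 34.9, 34.4 and 30.04 CPM in MA12 and 25.7, 37.3, 33.5 and 31.8 CPM in MA24. The 4 non-addicted rats differed little from each other and lay below all 8 others. It passed the adjusted threshold neither against MA12 (log2FC = -0.42 ± 0.11, adjusted p = 0.119) nor against MA24 (log2FC = -0.45 ± 0.12, adjusted p = 0.085), and MA24 vs. MA12 gave log2FC = 0.031 ± 0.13, adjusted p = 0.907.

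The last 2 identity genes were *Anpep*, which encodes aminopeptidase N, and *Tbx18*, a transcription factor of mural cells. *Anpep* lay between 2.76 and 3.04 CPM in the non-addicted rats, between 2.87 and 4.76 CPM in MA12, and between 3.44 and 7.71 CPM in MA24. *Tbx18* had 11 to 73 counts per rat. Neither was a DEG in any comparison. All 8 identity genes had a log2FC below 0 in non-addicted vs. MA12 (median -0.69), against 52.3% of all genes. Of the 8, 6 were lower at an unadjusted p below 0.05 (7.03% of all genes) and 1 was a downregulated DEG (0.149%). Their summed level was 104 to 159 CPM in the non-addicted rats, 159.5 to 274 CPM in MA12 and 163 to 199 CPM in MA24. Rat 9 had the lowest level of all 12 rats for each of the 8 genes. Without it, all 8 stayed below 0 against MA12, with a median of -0.48.

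**Figure D1:**
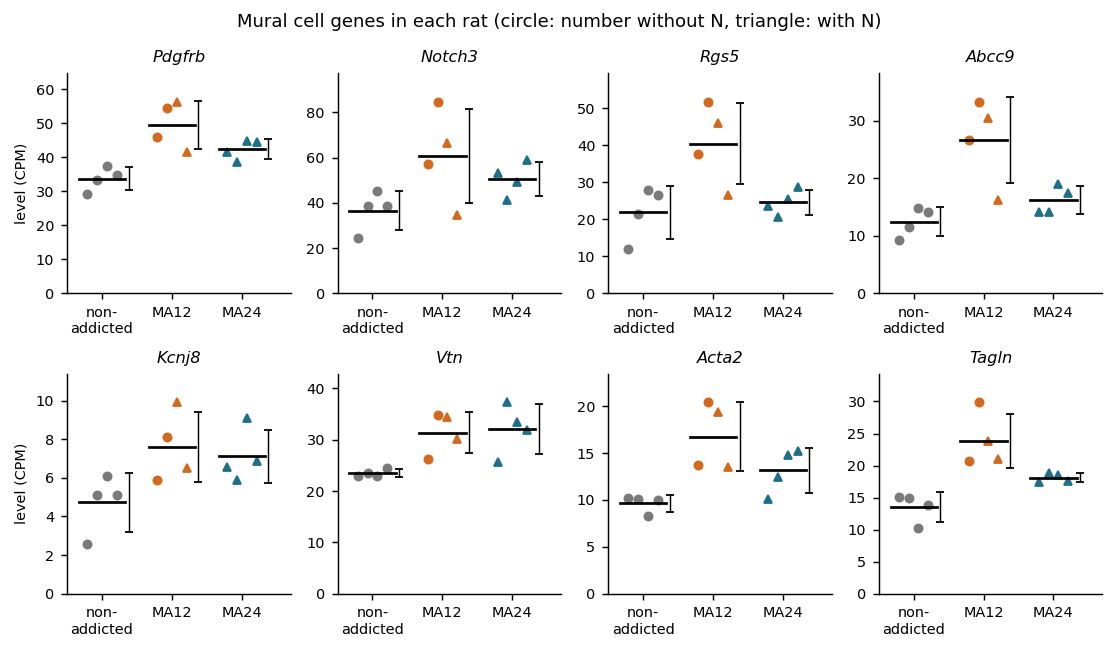
Level in CPM (vertical axis, from 0) of 8 mural cell genes in each rat, by group; lines are means, bars beside them SD (n = 4), circles rats whose number has no N and triangles rats whose number ends in N. The non-addicted rats lie below all MA12 rats for *Pdgfrb*, *Abcc9*, *Vtn*, *Acta2* and *Tagln*, and MA12 rat 7N, the lower triangle, is the lowest MA12 rat for *Pdgfrb*, *Notch3*, *Rgs5*, *Abcc9* and *Acta2*.

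The contractile genes gave the other 2 DEGs of non-addicted vs. MA12. *Acta2* encodes smooth muscle α-actin. It was at 10.2, 10.1, 8.24 and 10.04 CPM in the non-addicted rats, 13.7, 20.4, 19.4 and 13.6 CPM in MA12 and 10.2, 12.4, 14.8 and 15.3 CPM in MA24. The non-addicted rats lay below all MA12 rats and overlapped with MA24 through rat 9N. *Acta2* was downregulated in non-addicted vs. MA12 (means 9.64 ± 0.935 and 16.8 ± 3.65 CPM, log2FC = -0.81 ± 0.16, adjusted p = 0.0436), with log2FC = -0.35 ± 0.17, adjusted p = 0.208 for MA24 vs. MA12 and log2FC = -0.45 ± 0.16, adjusted p = 0.177 for non-addicted vs. MA24.

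*Tagln* encodes transgelin, an actin-binding protein of smooth muscle. It was at 15.1, 14.9, 10.2 and 13.8 CPM in the non-addicted rats, 20.8, 29.9, 23.8 and 21.0 CPM in MA12 and 17.5, 18.9, 18.6 and 17.6 CPM in MA24. The groups did not overlap in any of the 3 comparisons, with non-addicted lowest, MA24 between and MA12 highest. It was downregulated in non-addicted vs. MA12 (means 13.5 ± 2.28 and 23.9 ± 4.24 CPM, log2FC = -0.83 ± 0.15, adjusted p = 0.0257). It did not pass the adjusted threshold in MA24 vs. MA12 (log2FC = -0.40 ± 0.13, adjusted p = 0.0749) or in non-addicted vs. MA24 (log2FC = -0.43 ± 0.14, adjusted p = 0.145).

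*Myh11*, the myosin heavy chain of smooth muscle, was at 12.9, 12.5, 10.8 and 15.9 CPM in the non-addicted rats, 18.2, 25.6, 17.0 and 11.1 CPM in MA12 and 14.5, 13.1, 19.2 and 15.9 CPM in MA24. MA12 rat 7N lay below 3 of the non-addicted rats, and the value for non-addicted vs. MA12 was log2FC = -0.47 ± 0.19, adjusted p = 0.323. *Mylk*, which encodes the kinase that starts contraction by phosphorylating myosin light chain, gave log2FC = -0.68 ± 0.19, adjusted p = 0.137 in that comparison. *Myl9*, a regulatory myosin light chain, gave log2FC = -0.47 ± 0.14, adjusted p = 0.146, with all 4 non-addicted rats (12.0 to 15.4 CPM) below all 4 MA12 rats (16.5 to 21.1 CPM). *Cnn1*, which encodes calponin, had 1 to 11 counts per rat, 10, 5, 8 and 2 in the non-addicted rats, 1, 8, 3 and 3 in MA12 and 6, 11, 11 and 4 in MA24. Over the 6 genes, 5 were lower in non-addicted vs. MA12 at an unadjusted p below 0.05 (7.03% of all genes), and *Cnn1* was the exception. The summed level was 51.8 to 68.2 CPM in the non-addicted rats, 73.6 to 118 CPM in MA12 and 70.8 to 82.4 CPM in MA24. Rat 9 was the highest non-addicted rat for 3 of these 6 genes, in contrast to its place for the identity genes.

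The calls of *Acta2* and *Tagln* rested on the filters and on single rats. That of *Abcc9* was lost in 1 of 18 alternatives, and its log2FC stayed between -1.26 and -0.98. With genes of low variance kept, no gene of the list was a DEG in non-addicted vs. MA12 (adjusted p = 0.0887 for *Abcc9*, *Tagln* and *Acta2* alike), and 18 of the 33 had an unadjusted p below 0.05. DESeq2 called 4 genes, among them the 3 above. *Acta2* was lost without rat 9, 11, 12, 31 or 4N (adjusted p = 0.0659, 0.0896, 0.138, 0.0785 and 0.135), and *Tagln* without rat 12, 31 or 4N (adjusted p = 0.0794, 0.0571 and 0.0539), so 1 DEG was left without rat 12, 31 or 4N. *Acta2* was also lost with no filter, with all 3 groups in the fit and with the kind of number as a covariate (adjusted p = 0.0611, 0.0506 and 0.0917), and its log2FC stayed between -0.89 and -0.70 over the alternatives. Without MA12 rat 7N there were 8 DEGs and without non-addicted rat 13 there were 6. Within the rats whose number has no N (4 non-addicted and 2 MA12), 6 genes were DEGs, 3 of them identity genes and 3 contractile genes. The share of all genes that were DEGs in these fits is not given here, so a rise in the count cannot be read as particular to the list.

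In MA24 vs. MA12, *Rgs5* and *Abcc9*, both pericyte genes, were the 2 DEGs, and they remained DEGs with genes of low variance kept (adjusted p = 0.0374 and 0.045). Both were lower in MA24, and they compare with DEGs at 2.45% of all 10754 genes, 1.72% being downregulated. The log2FC was below 0 for 17 of 33 (51.7% of all genes), with a median of -0.026 against -0.016 over all genes. By role, the median was -0.17 over the identity genes, -0.26 over the contractile genes, 0.15 over the fibroblast genes, 0.0063 over the collagens and 0.052 over the basement membrane and adhesive genes. Without MA12 rat 31 the medians of the identity and contractile genes were -0.088 and -0.090, and among the rats with N they were -0.096 and -0.080, while that of the fibroblast genes turned to -0.031. At an unadjusted p below 0.05, 4 genes were lower (*Rgs5*, *Abcc9*, *Tagln* and *Acta2*) and 1 was higher (*Fn1*), against 13.1% and 10.5% of all genes. *Tagln* was the only gene of the list whose groups did not overlap, with MA24 lower, against 8.4% of all genes. Both calls were lost without MA12 rat 31 (*Abcc9* log2FC = -0.60, adjusted p = 0.063, and *Rgs5* log2FC = -0.58, adjusted p = 0.0486 with an FC under 1.5). They were also lost among the rats with N alone, where 2 MA12 rats remain (log2FC = -0.53, adjusted p = 0.191 and log2FC = -0.55, adjusted p = 0.113), and with the kind of number as a covariate (adjusted p = 0.207 and 0.156).

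**Figure D2:**
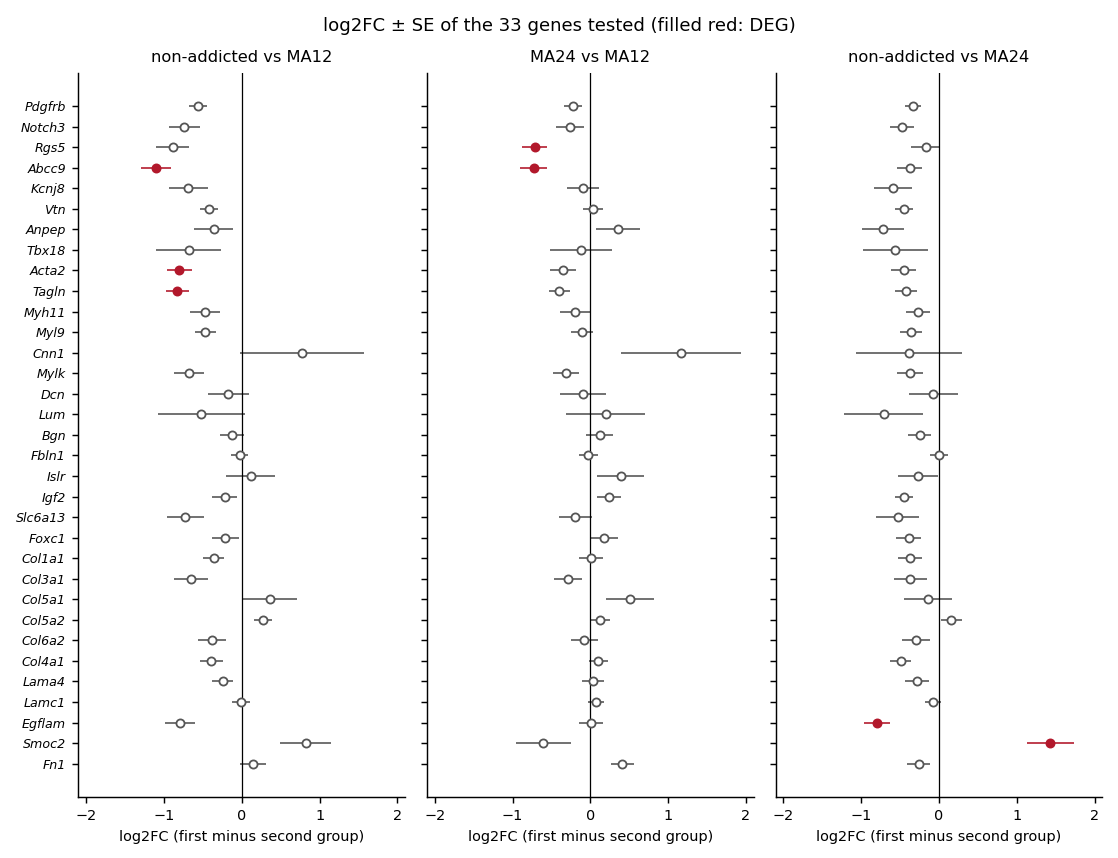
log2FC ± SE (horizontal axis) of the 33 genes tested in non-addicted vs. MA12, MA24 vs. MA12 and non-addicted vs. MA24, with DEGs filled in red; a value left of 0 is lower in the group named first. Of the 33 genes, 27 lie left of 0 in the first comparison, 17 in the second and 31 in the third, and the comparisons share rats.

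In non-addicted vs. MA24, which shares its non-addicted rats with the first comparison, 2 matrix genes were DEGs. *Smoc2* was upregulated and *Egflam* downregulated, against DEGs at 0.456% of all 10744 genes (0.326% upregulated and 0.13% downregulated). The log2FC was below 0 for 31 of 33 genes (49.7% of all genes), with a median of -0.37 against 0.0031 over all genes. At an unadjusted p below 0.05, 15 genes were lower and 1 higher, against 8.16% and 9.33% of all genes, and the groups did not overlap for 7 genes that were lower and 1 that was higher, against 4.99% and 4.93%. The identity genes were all below 0 (8 of 8, median -0.46), as were the contractile genes (6 of 6, median -0.38), and none was a DEG. Without rat 9, 27 of 32 genes tested were below 0 and the median was -0.31.

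*Egflam* encodes pikachurin, a matrix protein that binds dystroglycan. It was at 6.31, 8.34, 9.39 and 11.8 CPM in the non-addicted rats, 12.8, 18.1, 19.1 and 12.0 CPM in MA12 and 14.9, 16.4, 15.7 and 15.3 CPM in MA24. The non-addicted rats lay below all 8 others. Means were 8.95 ± 2.27, 15.5 ± 3.61 and 15.6 ± 0.616 CPM. It was downregulated in non-addicted vs. MA24 (log2FC = -0.80 ± 0.17, adjusted p = 0.0379). A difference of the same size from MA12 did not pass the adjusted threshold (log2FC = -0.80 ± 0.19, adjusted p = 0.0798), and MA24 vs. MA12 gave log2FC = 0.0022 ± 0.15, adjusted p = 0.996.

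*Smoc2* encodes a secreted calcium-binding protein of the SPARC family. It was at 7.30, 11.2, 7.96 and 3.90 CPM in the non-addicted rats, 4.37, 7.44, 2.02 and 3.22 CPM in MA12 and 2.11, 3.79, 3.55 and 1.80 CPM in MA24, from 34 to 228 counts per rat. Each non-addicted rat was above each MA24 rat, though rat 13 by little, and MA12 rats 21 and 31 were within the non-addicted range. It was upregulated in non-addicted vs. MA24 (means 7.60 ± 3.01 and 2.81 ± 1.01 CPM, log2FC = 1.43 ± 0.30, adjusted p = 0.0369), with log2FC = 0.82 ± 0.33, adjusted p = 0.316 against MA12. In MA24 vs. MA12 the value was log2FC = -0.60 ± 0.35, adjusted p = 0.301, which turned to 0.12 among the rats with N and to 0.10 with the kind of number as a covariate. The calls for *Egflam* and *Smoc2* were lost with genes of low variance kept (adjusted p = 0.0834), with all 3 groups in the fit (adjusted p = 0.0902 for *Egflam* and 0.105 for *Smoc2*), and without rat 11, 12, 9N, 15N or 16N (adjusted p from 0.0546 to 0.11 for *Egflam* and from 0.0644 to 0.124 for *Smoc2*).

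*Fn1* encodes fibronectin. It was at 38.8, 62.6, 56.0 and 73.0 CPM in the non-addicted rats, 38.4, 47.6, 53.5 and 68.4 CPM in MA12 and 60.4, 79.1, 58.6 and 77.5 CPM in MA24. The groups overlapped, and in MA24 vs. MA12 the value was log2FC = 0.41 ± 0.15, adjusted p = 0.106.

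*Col4a1*, the α1 chain of type IV collagen and a core protein of the vessel basement membrane, was at 27.0, 41.1, 44.7 and 40.6 CPM in the non-addicted rats, 41.0, 59.3, 55.2 and 44.8 CPM in MA12 and 51.5, 50.6, 51.3 and 61.6 CPM in MA24. All MA24 rats were above all non-addicted rats, while MA12 rat 21 lay below non-addicted rats 11 and 12. It was no DEG (log2FC = -0.39 ± 0.14, adjusted p = 0.265 for non-addicted vs. MA12 and log2FC = -0.49 ± 0.13, adjusted p = 0.0903 for non-addicted vs. MA24). *Lama4*, the α4 chain of the laminins of vessel walls, was at 11.4, 15.4, 14.5 and 15.7 CPM, 16.8, 16.0, 19.2 and 15.4 CPM and 16.7, 21.7, 16.5 and 14.0 CPM in the same order. Its groups overlapped, and the difference in non-addicted vs. MA12 was log2FC = -0.25 ± 0.14, adjusted p = 0.488. *Lamc1*, the laminin γ1 chain, had a log2FC of -0.0082, 0.07 and -0.078 in non-addicted vs. MA12, MA24 vs. MA12 and non-addicted vs. MA24.

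Among the interstitial collagens, *Col1a1* was at 11.6, 11.2, 13.3 and 11.4 CPM in the non-addicted rats, 13.9, 16.1, 17.5 and 13.4 CPM in MA12 and 14.2, 12.4, 14.6 and 20.2 CPM in MA24. The non-addicted rats lay just below the MA12 rats (log2FC = -0.36 ± 0.14, adjusted p = 0.281), and MA24 and MA12 had nearly the same mean (log2FC = 0.0063 ± 0.16, adjusted p = 0.987). *Col3a1*, the type III chain found with type I in vessel walls, was at 4.95, 4.84, 8.24 and 4.79 CPM, 7.40, 11.3, 8.13 and 9.09 CPM and 6.62, 8.43, 6.94 and 7.50 CPM. Non-addicted rat 12 was well above the other 3 of its group, and the value in non-addicted vs. MA12 was log2FC = -0.65 ± 0.21, adjusted p = 0.194. *Col5a2*, a chain of the type V collagen of thin fibrils, was the gene of the list whose non-addicted rats (19.7 to 25.9 CPM) all lay above the MA12 rats (17.2 to 19.6 CPM), with log2FC = 0.28 ± 0.12, adjusted p = 0.335. *Col6a2* and *Col5a1*, of the beaded and thin fibrils, were no DEGs, with log2FC = -0.38 ± 0.18, adjusted p = 0.397 and log2FC = 0.36 ± 0.35, adjusted p = 0.736 in the same comparison.

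**Figure D3:**
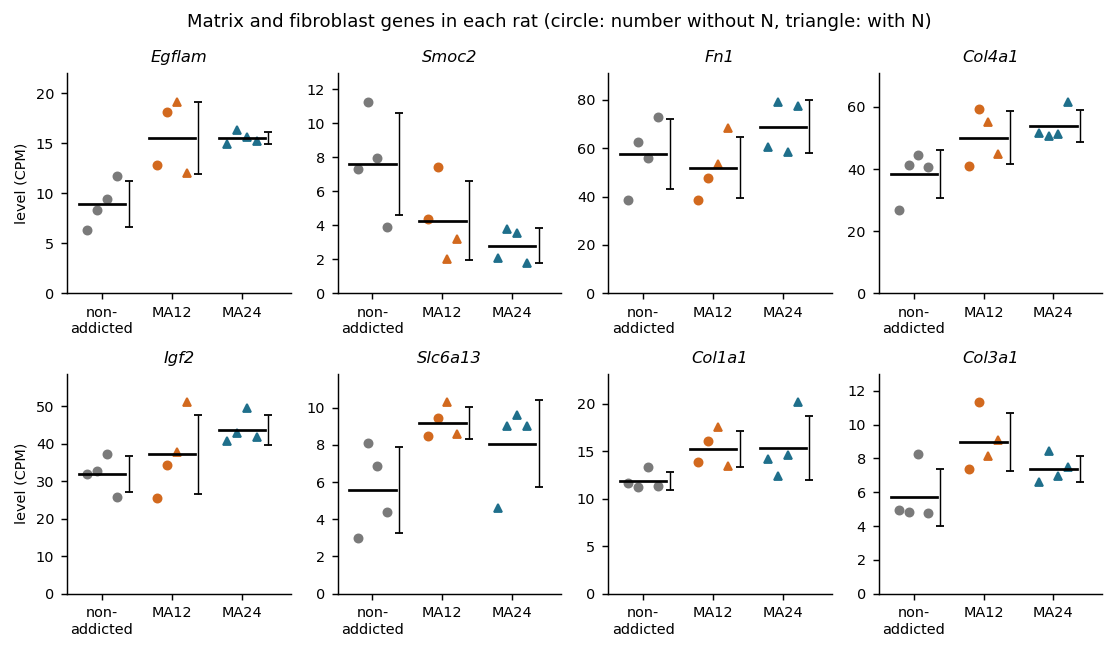
Level in CPM (vertical axis, from 0) of 8 matrix and fibroblast genes in each rat, by group; lines are means, bars beside them SD (n = 4), circles rats whose number has no N and triangles rats whose number ends in N. The non-addicted rats lie below all others for *Egflam* and above all MA24 rats for *Smoc2*, while the groups overlap for *Fn1*.

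No fibroblast gene was a DEG. *Slc6a13*, a GABA transporter of meningeal and perivascular fibroblasts, was at 2.97, 8.09, 6.85 and 4.37 CPM in the non-addicted rats, 8.45, 9.44, 10.3 and 8.58 CPM in MA12 and 4.60, 9.02, 9.61 and 9.03 CPM in MA24. The non-addicted rats lay below all MA12 rats (log2FC = -0.73 ± 0.24, adjusted p = 0.201), and MA24 rat 9N was within the range of the non-addicted rats. *Igf2*, a growth factor made in the adult brain mainly by meninges and choroid plexus, was at 32.0, 32.7, 37.3 and 25.8 CPM, 25.5, 34.4, 37.7 and 51.0 CPM and 40.6, 42.8, 49.5 and 41.7 CPM. All MA24 rats were above all non-addicted rats (log2FC = -0.45 ± 0.12, adjusted p = 0.0818), and MA12 spanned both. *Dcn*, decorin, was at 6.26, 4.54, 5.17 and 2.60 CPM, 6.10, 3.68, 6.16 and 4.97 CPM and 2.37, 6.26, 7.14 and 3.80 CPM. Its groups overlapped throughout, with log2FC = -0.17 ± 0.26, adjusted p = 0.844 in non-addicted vs. MA12. *Fbln1* (fibulin 1), *Bgn* (biglycan), *Islr*, *Foxc1* (a transcription factor of the meninges) and *Lum* (lumican) were DEGs in no comparison. Over the 8 fibroblast genes tested, the median log2FC was -0.19 in non-addicted vs. MA12 and -0.33 in non-addicted vs. MA24. Of the 8, 7 and 8 were below 0, against 52.3% and 49.7% of all genes. At an unadjusted p below 0.05, 1 and 2 were lower, against 7.03% and 8.16% of all genes. In non-addicted vs. MA12 the median turned to 0.012 among the rats without N.

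Other genes of the same cells, listed by symbol and not among the 40, were read in the same fits. Of 22 other mural cell genes tested in non-addicted vs. MA12, 17 were below 0 (52.3% of all genes) and 3 were DEGs (0.251% of all genes). These were *Mcam*, a cell adhesion molecule of mural and endothelial cells (log2FC = -0.92 ± 0.12, adjusted p = 0.00292), *Atp13a5*, a transporter that marks brain pericytes (log2FC = -0.76 ± 0.15, adjusted p = 0.0436), and *Cald1*, which encodes the actin-binding protein caldesmon (log2FC = -0.67 ± 0.14, adjusted p = 0.0446). *Mcam* was at 41.8, 40.1, 34.8 and 37.9 CPM in the non-addicted rats, 78.3, 76.1, 83.9 and 53.3 CPM in MA12 and 76.1, 53.2, 65.2 and 54.4 CPM in MA24, so that all non-addicted rats were below all 8 others. It was a DEG against MA24 too (log2FC = -0.69 ± 0.12, adjusted p = 0.0241), and against MA12 it remained one with genes of low variance kept (adjusted p = 0.0261). Without rat 9 or MA12 rat 31, 1 of these mural cell genes was a downregulated DEG in place of 3. In MA24 vs. MA12, 13 of the 22 were below 0 (51.7% of all genes) and none was a DEG, with 5 lower and 2 higher at an unadjusted p below 0.05, against 13.1% and 10.5% of all genes.

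Of the signals that recruit mural cells and the receptors that hold them to the matrix, 1 gene was a DEG. *Pdgfb*, the endothelial ligand of PDGFRβ, was downregulated in non-addicted vs. MA24 (log2FC = -0.59 ± 0.13, adjusted p = 0.0497), and the call was lost without rat 9. Of 17 recruitment genes, 13 were below 0 in non-addicted vs. MA12 (median -0.20, against 52.3% of all genes), and 15 of 16 in non-addicted vs. MA24 (median -0.26, against 49.7% of all genes). Of 11 matrix receptors, 10 were below 0 in non-addicted vs. MA12 (median -0.30), 4 of them at an unadjusted p below 0.05 (7.03% of all genes). Of 20 other fibroblast genes, *Cxcl12*, a chemokine of fibroblasts and endothelium, was the DEG in non-addicted vs. MA12 (log2FC = -0.72 ± 0.15, adjusted p = 0.044), and the call was lost without rat 9 or MA12 rat 31. Other matrix genes had medians of 0.023 in non-addicted vs. MA12 and 0.07 in MA24 vs. MA12, and none was a DEG. Of the enzymes that modify collagen, the prolyl hydroxylase genes *P4ha2* in non-addicted vs. MA12 (log2FC = 0.59 ± 0.12, adjusted p = 0.0443) and *P3h3* in MA24 vs. MA12 (log2FC = 0.70 ± 0.15, adjusted p = 0.0144) were upregulated, the first of them no longer without MA12 rat 31.

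Some markers of other cell types were DEGs in the same comparisons. Of 15 endothelial markers, 1 was a DEG in non-addicted vs. MA12 and 2 in non-addicted vs. MA24, with 13 of 15 (median -0.22) and 15 of 15 (median -0.35) below 0, against 52.3% and 49.7% of all genes. Their summed level overlapped between the groups, at 823 to 1178 CPM in the non-addicted rats, 984 to 1245 CPM in MA12 and 1145 to 1349 CPM in MA24, and no endothelial marker was at 0. *Kdr*, the VEGF receptor of endothelium, was downregulated in both (log2FC = -1.08 ± 0.18, adjusted p = 0.0128 and log2FC = -0.85 ± 0.17, adjusted p = 0.0354), as was *Cldn5*, the tight junction protein claudin 5, against MA24 (log2FC = -0.68 ± 0.12, adjusted p = 0.0241). In MA24 vs. MA12, where *Rgs5* and *Abcc9* were lower, 4 of 15 endothelial markers were below 0 (median 0.14), against 51.7% of all genes. *Abcg2*, a barrier transporter, was upregulated there (log2FC = 0.76 ± 0.17, adjusted p = 0.016). Among the rats with N, no endothelial marker was a DEG in that comparison. Of 7 ependymal markers, 6 were above 0 in non-addicted vs. MA12 and 5 in non-addicted vs. MA24. Of all genes, 52.3% and 49.7% were below 0 in these comparisons. The summed level of the ependymal markers was 69.1 to 131 CPM in the non-addicted rats, 52.5 to 106 CPM in MA12 and 58.1 to 75.7 CPM in MA24. *Foxj1* and *Rsph1*, genes of cilia, were upregulated against MA24 (log2FC = 1.08 ± 0.22, adjusted p = 0.0354 and log2FC = 1.20 ± 0.23, adjusted p = 0.0354). The part of these cell types in the results above was not tested. Without rat 9, endothelial markers were still below 0 for 12 of 14 in non-addicted vs. MA12 and 15 of 15 in non-addicted vs. MA24.

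**Figure D4:**
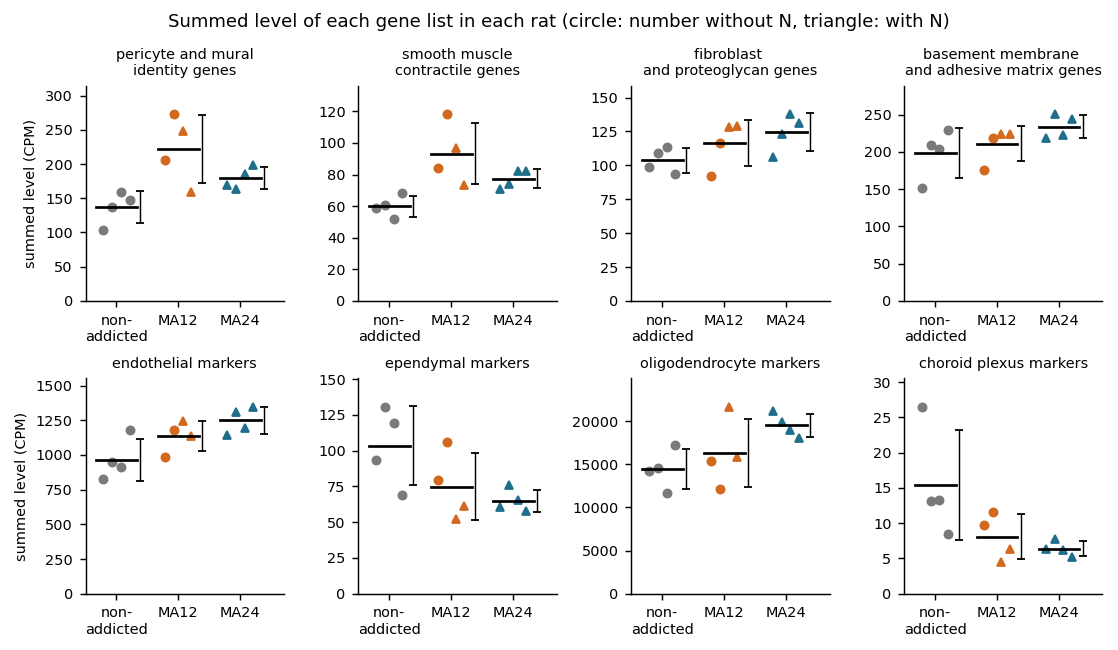
Summed level in CPM (vertical axis, from 0) of 4 gene lists of mural cells and matrix (upper row) and of 4 marker lists of other cell types (lower row) in each rat; lines are means, bars beside them SD (n = 4), circles rats whose number has no N and triangles rats whose number ends in N. The non-addicted rats have the lowest sums for the identity and contractile genes, and most of them have high sums for the ependymal markers.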

How the data were processed

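Per the labels and the study's methods, poly-A libraries of the whole striatum of 12 rats were sequenced from both ends. The authors used Cutadapt 1.18 for trimming, STAR 2.7.0e for alignment to the rn6 build and featureCounts for counting. The submitters' notes also list HTSeq 0.12.4 without a role, and settings for strand and for reads with several positions are not given in the sources used here, so overlapping genes and near-identical copies are uncertain. The deposited values are raw counts of 17337 genes, 17908962 to 23850284 per rat.

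Genes needed a mean count above 4 in the 8 rats compared, and the least variable 15% on the log2 CPM scale (prior count 2) were dropped, a reading of the filters the study names. Counts were scaled by TMM and tested with edgeR 4.0.16 (glmQLFit and glmQLFTest, two-sided, R 4.3.3) with only that pair in the fit. P-values were adjusted by Benjamini-Hochberg over all genes tested. The SE was the size of the coefficient divided by the square root of F. Each sample was 1 rat, all shared 1 batch date in the labels, and p-values measure the spread between rats.

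The 40 genes, the other lists and the named genes were chosen with earlier results of these data known, and no list was tested as a set. Values per rat were set for DEGs of the list and for 22 genes by role, of which *Col1a2* was at 0 and *Col6a1* was not analysed here, and of the other lists DEGs were named. The ranges of *Myl9* and *Col5a2* and the values per rat of *Mcam* were added after their values were seen. Alternatives were DESeq2 1.42.0, edgeR's likelihood ratio test, RLE factors, other filters, no limit on FC, all 3 groups in the fit, the kind of rat number, and each rat left out in turn. Counts of genes below 0 under these settings were added after the data were seen. Promoters come from RefSeq, build GRCr8.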

Additional observations from a re-analysis of the deposited data

Results flagged for a closer look

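Of 99 gene and group combinations examined by Dixon's ratio on log2 CPM (against the 95% critical value for 4 rats), 4 held a rat far from the rest of its group, while chance alone flags about 1 in 20, here 4.95. *Acta2* was lowest in non-addicted rat 12 (8.24 CPM, ratio 0.92) and *Col3a1* was highest in the same rat (8.24 CPM, ratio 0.938). *Slc6a13* was lowest in MA24 rat 9N (4.60 CPM, ratio 0.913), and *Col4a1* was highest in MA24 rat 16N (61.6 CPM, ratio 0.907). The pericyte genes of non-addicted rat 9 did not pass this limit.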

How the results depend on the processing

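No paired analysis was possible because the groups compared share no rat number in the labels. In MA24 vs. MA12 the 2 DEGs became 0 among rats numbered with N and with the kind of number as a covariate, and 0 to 2 with 1 rat left out, and genes whose groups do not overlap went from 1 to 5 among rats with N and from 1 to 7 with 1 rat left out. In non-addicted vs. MA12 the 3 DEGs became 0 with genes of low variance kept, 1 with no filter, 6 by the likelihood ratio test, 6 among rats without N, and 1 to 8 with 1 rat left out, while the non-overlapping genes (10) became 17 among rats without N and 10 to 15 with 1 rat left out. In non-addicted vs. MA24 the 2 DEGs became 0 with genes of low variance kept, with no filter and when the fit held all 12 rats, and 0 to 2 with 1 rat left out, while the non-overlapping genes (8) became 8 to 13. With genes of low variance kept, more genes enter the adjustment, and the unadjusted p-values of the DEGs in edgeR's quasi-likelihood test rose too. That of *Abcc9* in non-addicted vs. MA12 went from 1.46e-05 to 0.000115. That of *Egflam* in non-addicted vs. MA24 went from 0.000134 to 0.000354. Fewer rats remain in the last settings. Groups of fewer rats fail to overlap more readily, and the share of all genes is not given for these settings. Causes of these changes were not tested. With 1 rat left out, genes below 0 numbered 13 to 21, 24 to 27 and 27 to 31 in these comparisons, and the median log2FC ran from -0.081 to 0.045, -0.46 to -0.30 and -0.41 to -0.31, so only that of MA24 vs. MA12 changed sign.

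Some single log2FC values changed sign. In MA24 vs. MA12 among rats with N these were *Col1a1* -0.00581, *Igf2* -0.013, *Myh11* 0.17, *Notch3* 0.011 and *Smoc2* 0.12, and with the covariate *Col1a1* -0.024, *Egflam* -0.011, *Igf2* -0.028, *Lama4* -0.00839, *Myh11* 0.15, *Smoc2* 0.10 and *Vtn* -0.012. In non-addicted vs. MA12 *Igf2* 0.11 (rats without N) and 0.094 (covariate) were found. With 1 rat left out, some ranges spanned 0, in MA24 vs. MA12 *Col1a1* -0.15 to 0.092, *Egflam* -0.093 to 0.12, *Vtn* -0.052 to 0.12, *Myh11* -0.36 to 0.0198, *Kcnj8* -0.24 to 0.057, *Lama4* -0.099 to 0.12, *Dcn* -0.34 to 0.13, in non-addicted vs. MA12 *Dcn* -0.34 to 0.037, and in non-addicted vs. MA24 *Rgs5* -0.31 to 0.031, *Dcn* -0.30 to 0.17.
Genes with few counts, such as *Cnn1* (1 to 11 per rat), carry a large counting error.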

Other observations

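The other marker lists give the makeup of the tissue beside these genes. Oligodendrocyte markers were below 0 for 6 of 6 genes in non-addicted vs. MA12 (median log2FC -0.17) and in non-addicted vs. MA24 (median -0.36). Of all genes, 52.3% and 49.7% were below 0. Against MA24, 6 of 6 were lower at an unadjusted p below 0.05 (8.16% of all genes). None was a DEG in either comparison. Markers of microglia and macrophages had medians of -0.095 and -0.13 in these comparisons and 0.07 in MA24 vs. MA12. Markers of striatal projection neurons had medians of -0.06, -0.11 and -0.01 in the same order. Of the astrocyte markers, *Slc1a2*, the main glutamate transporter, was downregulated in MA24 vs. MA12 (log2FC = -0.70 ± 0.18, adjusted p = 0.0328), the comparison in which *Rgs5* and *Abcc9* were lower. No astrocyte marker was a DEG there without MA12 rat 31 or among the rats with N. Choroid plexus markers summed to 8.43 to 26.5 CPM in the non-addicted rats, 4.56 to 11.6 CPM in MA12 and 5.23 to 7.74 CPM in MA24. Rat 9 was the highest of all, with 17.2 CPM from *Ttr* alone. Its *Folr1*, *Clic6* and *Kcne2* were at 3.02, 2.66 and 2.97 CPM, against 5.48, 4.39 and 2.71 CPM in rat 11.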
